A study of Homo sapiens with 12 samples.

Results

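The core regions are stretches of the genome that carried a called peak of H3K27ac, the acetylation of histone H3 at lysine 27, in every ChIP-seq library of 3 pancreatic cancer lines: BxPC3, SUIT2 and Panc327. Overlapping peaks of the 6 H3K27ac lists (1 bp or more, chromosomes 1 to 22 and X) were joined into 58994 regions, of which 12721 (21.6%) had a peak from each list and form the core. The members were thus chosen by the authors' own peak calls, so the presence and strength of a peak in a core region are no finding, while its length, its division into peaks and the position of its summit are described below. All 3 are established human ductal adenocarcinoma lines. The 12 samples are, for each of them, 2 H3K27ac libraries and 2 inputs. The cells were untreated and grown under standard conditions, so the lines differ only in identity and share every other labelled condition. Nothing in the labels ties the replicates of a line to different cultures. Spreads and p-values here therefore measure only how these libraries vary, which may be technical. No annotation of hg19, the build of the peaks, was used, and regions are named by hg19 position alone.

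H3K27ac is laid down by the acetyltransferases p300 and CBP on the nucleosomes that flank active promoters and enhancers. The DNA bound by transcription factors lies between those nucleosomes and is itself depleted of them, so the mark often forms a pair of humps around a dip. Regions acetylated in several cell lines are commonly promoters of widely used genes, whereas enhancers are more often restricted to a line. Long stretches of the mark arise where promoters and enhancers lie close together.

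The lists held 27776 (Panc327 replicate 1) to 38335 (BxPC3 replicate 2) peaks. Read depth is not written in peak lists and is unknown here. Each library was instead described by the number of ChIP fragments stacked at the leading summit of a core region, the summit of the strongest peak that it had there, recovered from the deposited fold and −log10 p. Such a stack mixes depth with enrichment. The median stack was 261 and 279 in SUIT2 replicates 1 and 2, 119 and 153 in BxPC3, and 196 and 92 in Panc327. The local background, at the 1st percentile of each list, was 3.29 and 3.61 fragments in SUIT2, 1.76 and 2.12 in BxPC3, and 1.46 and 2.85 in Panc327. In these recovered values SUIT2 was highest in both measures, whereas Panc327 replicate 2 had the lowest stacks but more background than either BxPC3 library. The recovered stacks were whole numbers in only 1.83% and 5.97% of the BxPC3 peaks, against at least 99.98% in the other lists. The BxPC3 stacks had thus been rescaled and are not counts of fragments. The factor is not known here, so neither is the true order of BxPC3 against the other lines. The Panc327 libraries differed from each other more than those of the other lines in length and summit position, so results that rest on them are given beside the values of the other lines.

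Core regions held under 50% of the peaks in every library but Panc327 replicate 1, and over 50% of the marked sequence in all 6. They held 53.5% and 48.0% of the Panc327 peaks, 45.6% and 42.9% of the SUIT2 peaks and 43.0% and 38.0% of the BxPC3 peaks. Their share of the called bases was 67.3% and 63.9% for Panc327, 60.4% and 59.0% for SUIT2 and 60.5% and 57.3% for BxPC3. The median peak was 1387 to 2195 bp wide inside core regions and 638 to 951 bp outside them, depending on the library. A wide peak meets peaks of other lists more easily, so the rule itself favours width and a large share of the called bases. Peaks inside were also stronger, as the rule favours: the median −log10 p of the strongest peak per core region ran from 89.5 in Panc327 replicate 2 to 396 in SUIT2 replicate 2, against 25.7 to 37.9 for peaks outside.

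The number of libraries that called a region was not spread evenly. A single library called 14945 regions, 2 called 19483, 3 called 4107, 4 called 5736, 5 called 2002 and 6 called 12721. Median merged width grew along that series from 398 bp to 2780 bp; a merged width can only grow with each list that is joined. Just outside the core stood the 2002 regions of 5 libraries, with a median width of 2137 bp. In 1143 of them (57.1%) the missing library was Panc327 replicate 1, and in 474 (23.7%) it was Panc327 replicate 2. BxPC3 replicate 1 was missing from 159, SUIT2 replicate 1 from 137, SUIT2 replicate 2 from 58 and BxPC3 replicate 2 from 31. The weakest call of a 5-library region had a median −log10 q of 19.2, and that of a core region 77.8. Inside the core the weakest of the 6 calls came from Panc327 replicate 2 in 9146 regions (71.9%), the library with the lowest recovered stacks. The lowest −log10 q in any core region was 8.38.

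Chromosome 19 carried 936 core regions, 45.4% of its 2061 regions that both replicates of some line called, the highest share of any chromosome. Chromosomes 17 (37.7%), 16 (36.6%) and 22 (34.6%) followed, and chromosomes 4 (21.7%), 18 (22.01%) and 13 (22.2%) had the lowest shares. Core regions on chromosome 19 were short, with a median merged width of 2350 bp, and those on chromosome 12 were long, with 3058 bp. Chromosome X had the shortest, with a median of 2329 bp. Neighbouring core regions lay a median of 56.1 kb apart. In 1869 of 12698 neighbouring pairs (14.7%) the gap was at most 10 kb.

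A core region was usually a compact kernel with variable margins. The median merged region was 2780 bp wide, and the central 80% of regions ran from 1530 to 5942 bp. The bases called in all 6 libraries numbered a median of 1218 bp per region, or 43.5% of its merged width. Over all core regions, 17.2 of 44.5 Mb (38.6%) were called in every library. In 154 regions the shared bases filled at least 80% of the merged width, and in 1603 they filled under 20%. No base was common to all 6 libraries in 167 regions, where the calls were linked only through one another. The longest shared kernel, 18031 bp, lay on chromosome 11 from 118777920 to 118801618 and filled 76.1% of that region. The next lay on chromosome 19 from 39134904 to 39162835 (13814 bp shared of 27932 bp), on chromosome 8 from 145005816 to 145028823 (13707 bp of 23008 bp) and on chromosome 1 from 156083021 to 156105728 (12764 bp of 22708 bp). These 4 stretches were long in every library, unlike other regions that were long in 1 line.

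The length of called H3K27ac per core region differed between lines in the order SUIT2, BxPC3, Panc327, with Panc327 replicate 2 inside the BxPC3 range. The median covered length was 2229 and 2300 bp in SUIT2 replicates 1 and 2, 1910 and 2026 bp in BxPC3, and 1551 and 1978 bp in Panc327. Line means were 2265 ± 50.2 bp for SUIT2, 1968 ± 82.0 bp for BxPC3 and 1765 ± 302 bp for Panc327 (SD, n = 2). Regions covered over at least 10 kb numbered 239 and 258 in SUIT2, 92 and 111 in BxPC3, and 31 and 68 in Panc327. Both SUIT2 libraries lay above the other 4 in both measures. Both SUIT2 libraries were wider than each of the other 4 in 6172 core regions (48.5%), against 1477 (11.6%) for BxPC3 and 1182 (9.29%) for Panc327, whose libraries were both narrower than the rest in 4156 (32.7%). SUIT2 also had the highest recovered stacks and background, with those of BxPC3 rescaled, and their part in its length was not tested. With 2 libraries against 2 the smallest p of a two-sided exact permutation test is 0.333, so the line means were not tested.

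**Figure D1:**
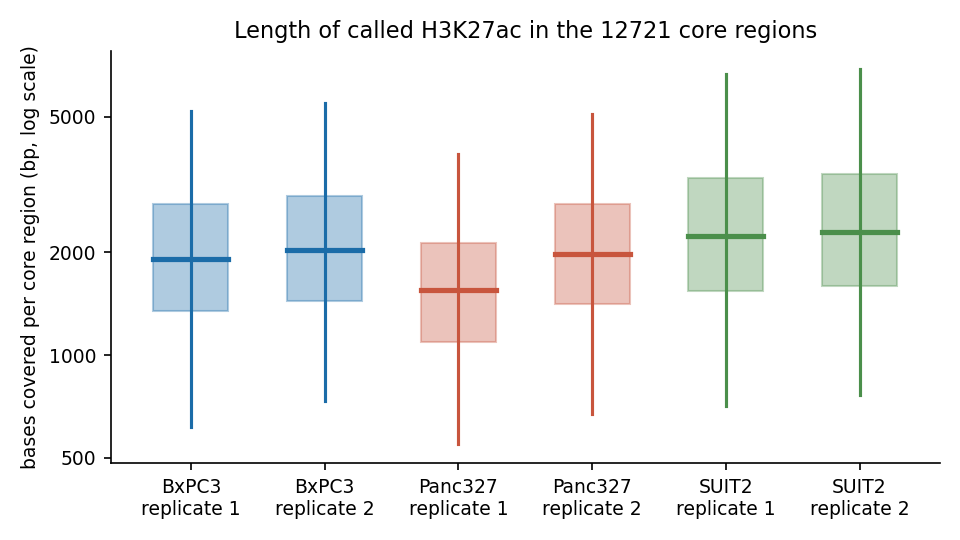
Bases covered per core region in each of the 6 H3K27ac libraries (vertical axis, bp, log scale). Thick lines are medians, boxes the middle 50% of regions and thin lines the 5th to 95th percentile. The medians of SUIT2 (2229 and 2300 bp) lie above those of the other 4 libraries, and Panc327 replicate 1 is lowest at 1551 bp.

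Replicates of SUIT2 and BxPC3 gave nearly the same length for most core regions, and those of Panc327 did not. The median absolute log2 ratio between replicates was 0.08 in SUIT2, 0.10 in BxPC3 and 0.40 in Panc327. Replicates were at least 2-fold apart in 52 core regions in SUIT2 (0.409%), 109 in BxPC3 (0.857%) and 1860 in Panc327 (14.6%). In 1624 of those 1860 regions Panc327 replicate 2 was the wider library. Panc327 replicate 1 thus had narrower peaks with a higher stack of reads, and replicate 2 wider peaks with a lower one.

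Within these limits each line had core regions that were broader or narrower than in the other lines. Covered length was compared on a log2 scale, each library centred on its median over the core, so that a line is set against the others after removing the overall gap in length. At a limma adjusted p under 0.05 and a difference of at least 1 (2-fold), 570 regions were broader in SUIT2 and 693 narrower, which is 4.48% and 5.45% of the 12721 tested. In Panc327 616 were broader (4.84%) and 509 narrower (4.0%), and in BxPC3 302 were broader (2.37%) and 350 narrower (2.75%). The 3 comparisons share libraries, since the controls of each line are the other 4 libraries. Without centring, which moved the median difference of all core regions to 0.33 in SUIT2 and -0.30 in Panc327, SUIT2 had 994 broader and 432 narrower regions, and Panc327 318 and 867. Whether SUIT2 had more broader or more narrower core regions therefore depended on the centring, and so did the order in Panc327.

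Regions broader in SUIT2 were long: the median covered length was 5481 bp in SUIT2 and 1538 bp in the other libraries. Those narrower in SUIT2 covered 827 bp there and 2102 bp elsewhere. Regions narrower in Panc327 covered 1139 bp in Panc327 and 3738 bp in the others, and the regions broader in it 2231 bp against 1048 bp. In BxPC3 the broader regions covered 3515 bp against 1330 bp and the narrower ones 686 bp against 1937 bp. A region broader in SUIT2 or BxPC3 was thus long for that line, whereas one broader in Panc327 was nearer the usual length of Panc327 and short elsewhere.

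These counts depended on single libraries. For BxPC3, 302 broader and 350 narrower regions became 0 and 0 without either BxPC3 library or without SUIT2 replicate 1, and 31 and 25 without SUIT2 replicate 2. At an unadjusted p under 0.05, limma still gave 895 broader and 1114 narrower without BxPC3 replicate 1, 887 and 1203 without replicate 2, and 1235 and 1270 without SUIT2 replicate 1. The calls at the adjusted threshold rose to 653 and 549 without Panc327 replicate 1 and to 650 and 583 without Panc327 replicate 2. For SUIT2 the broader regions numbered 156 without SUIT2 replicate 1, 146 without SUIT2 replicate 2, 1051 without Panc327 replicate 1 and 960 without Panc327 replicate 2. Its narrower regions numbered 332 and 317 without SUIT2 replicates 1 and 2. For Panc327 the broader regions numbered 394 and 399 without BxPC3 replicates 1 and 2, 378 without SUIT2 replicate 1 and 1010 without Panc327 replicate 2. Its narrower regions numbered 274 and 248 without the BxPC3 libraries, 233 and 248 without the SUIT2 libraries and 1036 and 1260 without the Panc327 libraries. In each of these fits a line with 1 library left was assumed to vary like the others. The main fit likewise gave each region 1 spread, shared by all lines. The median absolute log2 ratio between replicates was however 0.40 in Panc327, 0.10 in BxPC3 and 0.08 in SUIT2. The shared spread can thus be too small for Panc327 and too large for SUIT2 and BxPC3. Its part in the counts was not tested.

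A stricter description used the deposited lengths with no centring. A core region was called much broader in a line when the narrower of its libraries covered at least 3 times the bases of the widest of the other 4. SUIT2 had 127 such regions (0.998% of the core), Panc327 24 (0.189%) and BxPC3 12 (0.0943%). The test above also called 124 of the SUIT2 regions, 24 of the Panc327 regions and 12 of the BxPC3 regions broader. Both rules use the same lengths, and a ratio of at least 3 nearly ensures the 2-fold difference. The overlap is therefore no independent support. The highest ratio outside the limit was 2.997 in SUIT2, 2.962 in Panc327 and 2.960 in BxPC3, and the lowest inside it was 3.012, 3.001 and 3.022. Dividing each length by the median of its library left 70 SUIT2 regions. Without Panc327 replicate 1 there were 231 in SUIT2, 40 in Panc327 and 28 in BxPC3, and without Panc327 replicate 2 there were 212 in SUIT2 and 43 in BxPC3.

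The highest ratio of any core region, 20.1, was on chromosome 12 from 105709775 to 105729462. SUIT2 covered 19227 bp of it in replicate 1 and 19280 bp in replicate 2, BxPC3 850 and 813 bp, and Panc327 955 and 766 bp. The SUIT2 libraries lay far above the other 4, which overlapped one another (log2 difference 4.23, SE 0.21, limma adjusted p = 0.00135). All 6 leading summits fell within 153 bp, 14900 to 15053 bp from the start of the region, so that the long SUIT2 domain contained the short peak of the other lines at its own highest point.

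The region second in rank lay on chromosome 7 from 130520510 to 130534497. It covered 13988 and 13647 bp in SUIT2, 266 and 743 bp in BxPC3, and 383 and 1099 bp in Panc327 (log2 difference 4.40, SE 0.50, limma adjusted p = 0.00489). Here the replicates of BxPC3 and of Panc327 each differed more than 2-fold, and both SUIT2 libraries were still at least 12.4 times the widest of the others. Farther along chromosome 7, from 130550866 to 130614243, lay the second widest core region of all. It covered 62475 and 62889 bp in SUIT2, 13357 and 15932 bp in BxPC3, and 1177 and 12551 bp in Panc327. The Panc327 libraries disagreed strongly there, and the SUIT2 difference of 2.78 (SE 0.83) did not pass the test (limma adjusted p = 0.0691).

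Other SUIT2 domains sat over a single peak in each of the other libraries. On chromosome 10 from 32322278 to 32347300, SUIT2 covered 24538 and 25023 bp against 2284 and 2988 bp in BxPC3 and 1376 and 2398 bp in Panc327. The 6 leading summits of that region lay within 50 bp, near its right end. On chromosome 2 from 113398008 to 113426614, SUIT2 covered 28607 and 28468 bp, BxPC3 3609 and 3936 bp, and Panc327 1645 and 2843 bp. On chromosome 20 from 42576153 to 42591417 the lengths were 15249 and 15127 bp in SUIT2, 1558 and 1466 bp in BxPC3, and 730 and 1687 bp in Panc327. In all 3 the SUIT2 libraries stood clear of the others, with log2 differences of 3.22 (SE 0.17), 3.03 (SE 0.15) and 3.27 (SE 0.25) and limma adjusted p of 0.00139, 0.00135 and 0.00211.

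Some domains covered several separate peaks of another line. On chromosome 2 from 109580033 to 109606090 each SUIT2 library called 1 peak, of 26054 and 26026 bp. BxPC3 called 4 and 3 peaks with 2797 and 2914 bp in all, and Panc327 called 2 and 2 with 1879 and 1333 bp. The leading summit of both SUIT2 libraries and of Panc327 replicate 1 lay 8276 to 8403 bp from the start, and that of the other 3 libraries 24940 to 25436 bp from it. On chromosome 10 from 114133000 to 114157575, SUIT2 covered 24481 and 23914 bp as 1 peak, BxPC3 2171 and 2720 bp as 2 and 3 peaks, and Panc327 507 and 1153 bp as 1 peak. All 6 leading summits agreed within 73 bp there.

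In Panc327 the largest ratio, 11.1, was on chromosome 20 from 62680105 to 62689639. Panc327 covered 9535 and 8377 bp, BxPC3 609 and 753 bp, and SUIT2 604 and 651 bp (log2 difference 4.05, SE 0.18, limma adjusted p = 0.00215). Panc327 replicate 2 called it as 2 peaks. The region on chromosome 2 from 175196807 to 175209700 followed, with 9809 and 12894 bp in Panc327, 1071 and 1463 bp in BxPC3, and 699 and 666 bp in SUIT2 (log2 difference 3.87, SE 0.14, limma adjusted p = 0.00167). The short peaks of the other lines were not at the same place in it: the BxPC3 summits lay 8137 and 8704 bp from its start, near those of Panc327, and the SUIT2 summits 513 and 522 bp from it. On chromosome 12 from 54375425 to 54380953 Panc327 covered 5523 and 5476 bp, BxPC3 741 and 775 bp, and SUIT2 929 and 1052 bp. On chromosome 7 from 27186276 to 27191672 it covered 5034 and 5189 bp, against 468 and 1069 bp in BxPC3 and 956 and 1252 bp in SUIT2. Chromosome 19, which was not chosen in advance, held 6 of the 24 Panc327 regions, 0 of the 12 BxPC3 regions and 0 of the 127 SUIT2 regions. It held 7.36% of all core regions. The SUIT2 regions were uneven too: chromosomes 2, 10 and 20 held 17, 12 and 11 of them, with 6.51%, 4.19% and 2.94% of all core regions. Chromosome 17, with 6.43%, held 5.

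In BxPC3 the largest ratio was 4.36, on chromosome 5 from 40676114 to 40685132. BxPC3 covered 8067 and 9019 bp, Panc327 1124 and 1315 bp, and SUIT2 1851 and 1692 bp (log2 difference 2.56, SE 0.11, limma adjusted p = 0.00366). A second region of chromosome 5, from 134521645 to 134527520, covered 5836 and 5876 bp in BxPC3, 1421 and 1388 bp in Panc327, and 387 and 452 bp in SUIT2. On chromosome 12 from 66582476 to 66586008 the lengths were 3200 and 3518 bp in BxPC3, 859 and 765 bp in Panc327, and 421 and 416 bp in SUIT2. In both of these all 3 lines were separate, with SUIT2 the shortest.

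**Figure D2:**
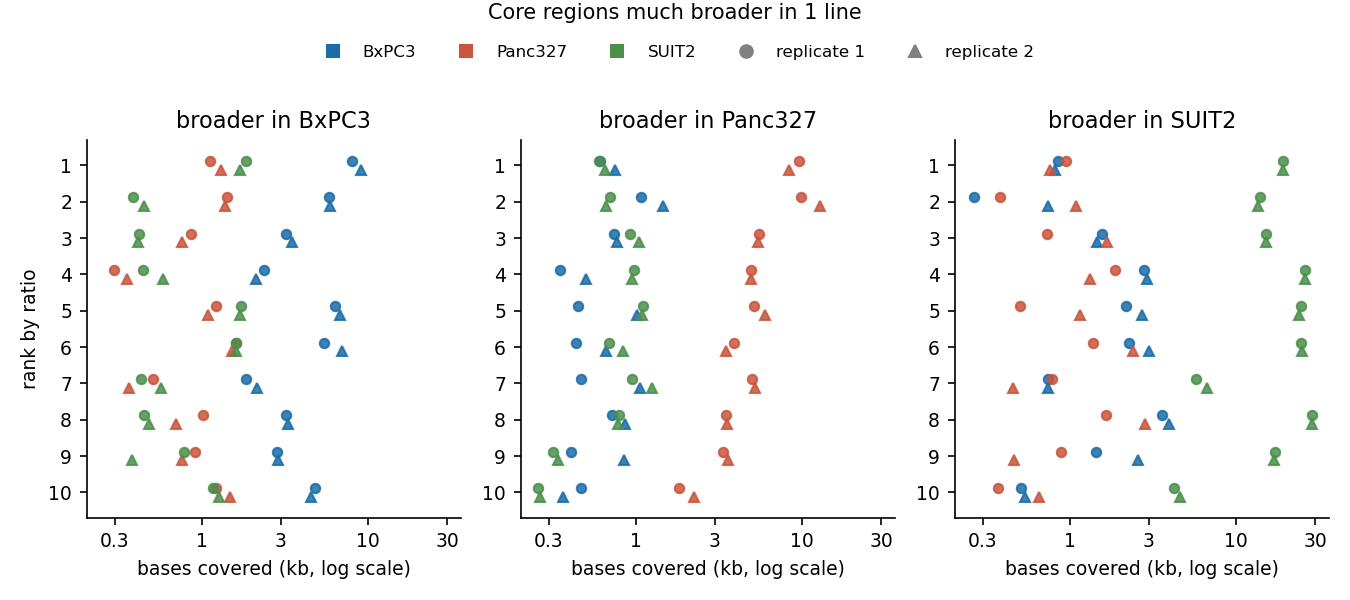
Bases covered (horizontal axis, kb, log scale) in the core regions much broader in 1 line, the 10 with the highest ratio per line, ranked from 1. Colours are lines, circles replicate 1 and triangles replicate 2. In every region shown both libraries of the broad line lie to the right of the other 4, up to 20.1 times the widest of them in the SUIT2 region of rank 1.

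The way the domains extended was described for each line. The length that the broad line added beyond the outermost calls of the others was split into its left and right parts. At least 80% of it lay on a single side in 65 of 127 SUIT2 regions, 16 of 24 Panc327 regions and 10 of 12 BxPC3 regions. Each side held at least 40% of it in 19, 2 and 1 regions. The line's own summit stayed within 200 bp of the median summit of the other 4 libraries in 76 of the 127 SUIT2 regions (59.8%), 10 of the 12 BxPC3 regions and 7 of the 24 Panc327 regions (29.2%). Over all core regions that share was 76.3% in SUIT2, 77.2% in BxPC3 and 69.4% in Panc327. The other 4 libraries each called 1 peak in 65 SUIT2 regions, 21 Panc327 regions and 12 BxPC3 regions.

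The local background that the peak caller assumed, recovered from the deposited values, was also compared. Relative to a floor set at the 1st percentile of each list, its median was 1.07 in the SUIT2 libraries, against 1.00 over all core regions, 1.38 against 1.33 in Panc327, and 1.56 against 1.29 in BxPC3. Both libraries of the line stood at 2 or more in 2 of 127, 1 of 24 and 1 of 12 regions, and over all core regions in 0.558% for SUIT2, 5.16% for Panc327 and 3.07% for BxPC3. The part of background in the broad calls was not tested. The BxPC3 levels are less exact, since its stacks had been rescaled and were not whole numbers.

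**Figure D3:**
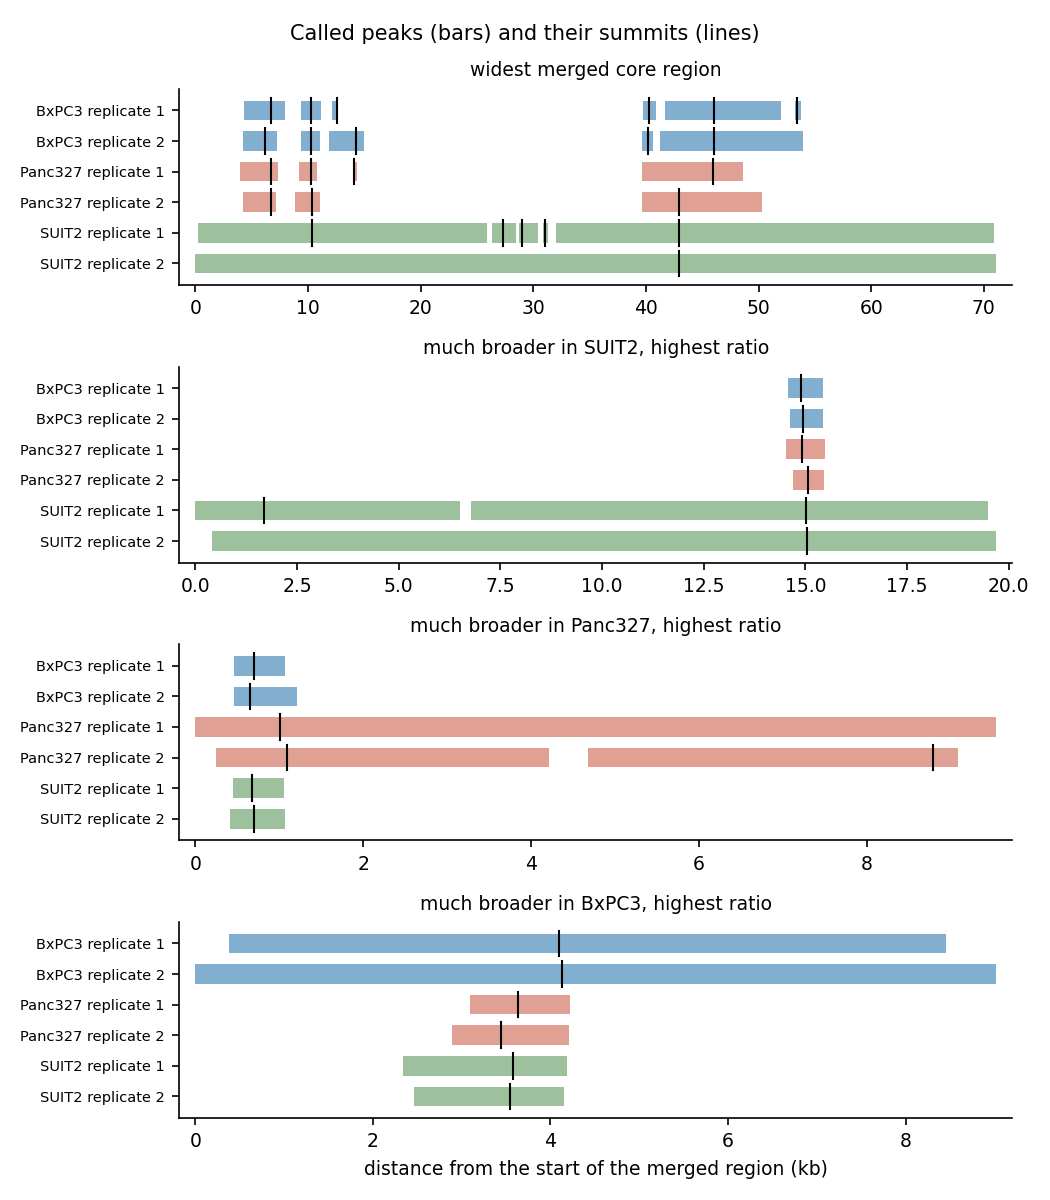
Called peaks (bars) and their summits (black lines) in each library along 4 core regions, with distance from the start of the region in kb on the horizontal axis. The top map is the widest core region, where SUIT2 covered 68.7 and 71.1 kb. The lower maps are the regions with the highest ratio in SUIT2, Panc327 and BxPC3, where short peaks of the other lines lie inside the long call of 1 line.

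Most core regions were undivided. In 9367 of 12721 (73.6%) every library called exactly 1 peak, and in 58 (0.456%) every library called at least 2. A single peak was called in 93.5% and 94.7% of core regions in SUIT2, and in Panc327 in 87.7% and 91.99%, with BxPC3 at 88.3% and 88.9%. The gaps between neighbouring peaks of a library within a core region had a median of 477 bp. Both BxPC3 libraries divided 250 regions that the other 4 libraries called as 1 peak, both Panc327 libraries 90 and both SUIT2 libraries 82. Conversely, both SUIT2 libraries called 1 peak in 155 regions that the other 4 divided, against 44 for Panc327 and 17 for BxPC3. SUIT2, the line with the longest calls and the highest recovered stacks, was the most joined. Panc327 replicate 2, with the lowest recovered stacks, came next. The BxPC3 stacks had been rescaled and cannot be ranked with certainty.

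The most divided core region was on chromosome 16 from 69427400 to 69463117, with 31 peaks over the 6 lists. BxPC3 called 6 and 7 peaks there, Panc327 10 and 5, and SUIT2 1 and 2. The bases covered were 10140 and 11203 bp in BxPC3, 9828 and 19064 bp in Panc327, and 35593 and 35444 bp in SUIT2 (log2 difference of SUIT2 1.27, SE 0.19, limma adjusted p = 0.0101). Each line had its leading summit at a place of its own in this region: BxPC3 at 69458812 and 69458754, Panc327 at 69445713 and 69445896, and SUIT2 at 69432653 and 69432599. The replicates of each line lay close together, and the lines more than 10 kb apart. The region on chromosome 17 from 57899327 to 57943436 held 30 peaks, of which 11 were in Panc327 replicate 1, and 5783 bp were common to all libraries. It covered 43495 and 44110 bp in SUIT2, 19202 and 20221 bp in BxPC3, and 7935 and 20823 bp in Panc327. Panc327 replicate 2 lay above both BxPC3 libraries in it and replicate 1 below them. On chromosome 19 from 39168311 to 39190852, 30 peaks covered 12408 to 20648 bp per library, and the local background of the Panc327 libraries stood at 6.12 and 9.12 times its floor, the part of which in the values was not tested. The region on chromosome 10 from 95214876 to 95243265 was divided without being broad in 1 line. BxPC3 called 7 and 5 peaks there, Panc327 11 and 3, and SUIT2 2 and 1, which covered 20953, 22292, 11710, 25382, 27893 and 28286 bp in the same order (log2 difference of SUIT2 0.25, SE 0.22, limma adjusted p = 0.462).

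The widest core region of all lay on chromosome 11 from 65144009 to 65215092. BxPC3 covered 17991 and 21459 bp of it as 6 and 5 peaks, Panc327 14215 and 15725 bp as 4 and 3, and SUIT2 68721 and 71084 bp as 5 and 1. The bases called in all 6 libraries came to 12105 bp, and the SUIT2 calls ran on across the gaps that the other lines left. Both SUIT2 summits and that of Panc327 replicate 2 lay 42930 to 42966 bp from the start, and those of BxPC3 and Panc327 replicate 1 lay 45961 to 46023 bp from it.

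Summits, the positions of highest signal, lay close together in all 6 libraries in part of the core. The 6 leading summits spanned at most 200 bp, about a nucleosome with its linker, in 5676 regions (44.6%), at most 100 bp in 2839 (22.3%) and at most 500 bp in 8357 (65.7%). The median span was 250 bp. It was 208 bp in regions with 1 peak in every library and 509 bp in the others. Without both Panc327 libraries, the 4 remaining summits spanned at most 200 bp in 8736 regions (68.7%), with a median of 91 bp. Without Panc327 replicate 1 alone the share was 53.8% and without replicate 2 alone 54.0%. Fewer summits can only span the same or less, so a rise was fixed in advance. With the core rebuilt from 5 lists, the summits spanned at most 200 bp in 7250 of 13902 regions without Panc327 replicate 1. Without replicate 2 they did so in 7116 of 13215. Without 1 BxPC3 or SUIT2 library the counts were 5919 to 6001, in cores of 12753 to 12881 regions.

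The sharpest agreement at strong sites was a span of 14 bp over the 6 summits. In 179 core regions the peak was in the top 5% of every list by −log10 q. All 6 summits lay within 200 bp in 96 of them (53.6%), against 44.6% of all core regions. Their median span was 165 bp, against 250 bp over the core. The regions that follow were picked for the smallest span. On chromosome 7 from 55430549 to 55435205 the BxPC3 summits lay at 55433845 and 55433856, those of Panc327 at 55433859 and 55433855 and those of SUIT2 at 55433854 and 55433851, a span of 14 bp. On chromosome 20 from 34540002 to 34543581 they spanned 19 bp and on chromosome 1 from 91485943 to 91488689 20 bp. On chromosome 9 from 96927691 to 96931565 they spanned 23 bp, and on chromosome 7 from 32927872 to 32933421 24 bp. These regions covered 1655 to 5550 bp per library, against library medians of 1551 to 2300 bp over the core. The libraries differed in length by far more than their summits did in position.

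Summit distance was compared between libraries in the 9367 regions with 1 peak per library. The median distance was 28 bp between the SUIT2 replicates, 33 bp between the BxPC3 replicates and 89 bp between the Panc327 replicates. Pairs of different lines had medians of 39 to 44 bp for BxPC3 with SUIT2, 68 to 72 bp for BxPC3 with Panc327 and 67 to 75 bp for Panc327 with SUIT2. The Panc327 replicates were thus farther from each other than from any library of another line. The mean was 50 bp within lines and 60.5 bp between them, and the difference of 10.5 bp was the highest among the 15 possible pairings of the 6 libraries (one-sided exact permutation p = 0.0667, the smallest that 15 pairings can give). It was 27.5 bp without Panc327 replicate 1, 25.6 bp without Panc327 replicate 2, 0.875 bp without SUIT2 replicate 1 and 1.5 bp without SUIT2 replicate 2. It was 3.81 bp without BxPC3 replicate 1 and 5.63 bp without BxPC3 replicate 2. Edges moved more than summits: the median distance between the edges of 2 libraries was 59 bp in SUIT2, 62 bp in BxPC3 and 199 bp in Panc327, and 165 to 364 bp between lines.

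Summit distances did not simply tail off. Over the 12 pairs of different lines, 45.0% of distances were under 50 bp and the share per 50 bp bin fell to 1.69% at 300 to 350 bp. It rose again to 2.10% at 450 to 500 bp and 2.09% at 500 to 550 bp and then fell. Distances from 300 to under 700 bp made up 11.5% to 16.2% of the regions for pairs of different lines, 14.9% between the Panc327 replicates, 6.13% between the BxPC3 replicates and 5.08% between the SUIT2 replicates. Summits within peaks of 1.5 to 3 kb had a median relative position of 0.495 to 0.499 of the peak. Such a median also arises when summits lie equally often on either side of the middle. Between 0.4 and 0.6 of the peak lay 39.4% to 49.9% of them, and the rest lay farther out.

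**Figure D4:**
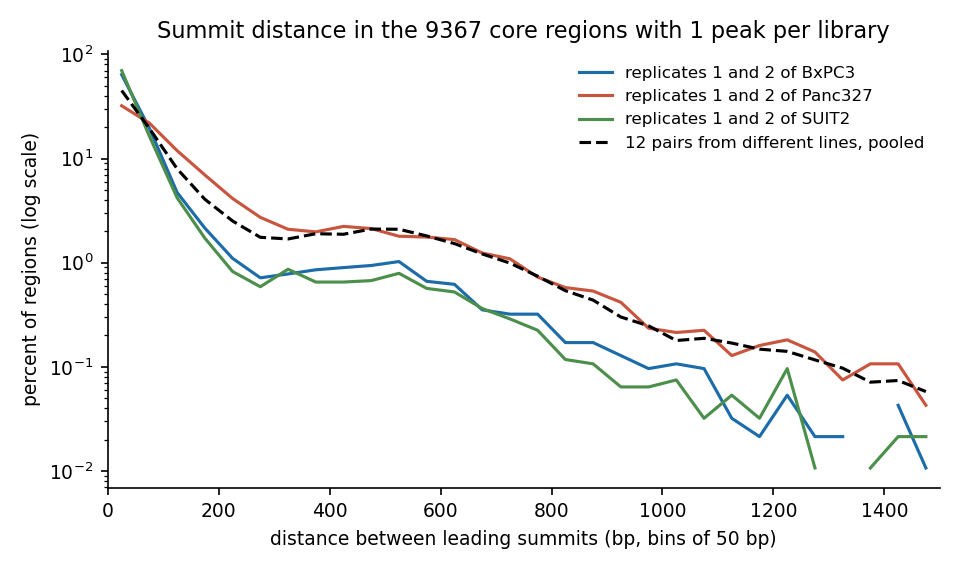
Distance between the leading summits of 2 libraries (horizontal axis, bp, bins of 50 bp) against the percent of core regions with 1 peak per library (vertical axis, log scale). Coloured lines are the replicates of a line and the dashed line pools the 12 pairs from different lines. After the fall from 0 bp the dashed line dips to 1.69% at 300 to 350 bp and rises to 2.10% at 450 to 500 bp.

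Replicate summits were closer in core regions than elsewhere at the same length. Among regions with 1 peak in both libraries of a line and a mean width of 1000 to 2000 bp, the median distance between BxPC3 replicates was 32 bp in the core (4568 regions) and 52 bp outside it (3744 regions). In Panc327 it was 85 and 141 bp, and in SUIT2 27 and 58 bp. The distance was shorter in the core in 3 of 3 lines (exact sign-flip permutation test, two-sided p = 0.25, the smallest that 3 lines allow). Core peaks were also the stronger ones, and the part of strength in this difference was not tested.

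Grouping summits at most 150 bp from the next one gave 1 position in 6574 core regions (51.7%), 2 in 4545 (35.7%) and 3 or more in the rest. The 2 positions lay a median of 454 bp apart. A single Panc327 library stood alone on its side in 1882 of the 4545 regions (41.4%), replicate 1 in 935 and replicate 2 in 947. A single library of BxPC3 or SUIT2 stood alone in 603. Whole lines stood apart in 1027 regions (22.6%): both Panc327 libraries in 410, both SUIT2 libraries in 391 and both BxPC3 libraries in 226. The 12 pairs made of different lines stood apart in 13 to 65 regions each.

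Under a stricter rule the libraries of a line had summits within 150 bp of each other, the other 4 within 150 bp of one another, and at least 500 bp between the sets. It was met by 160 core regions for Panc327 (1.26%), 154 for SUIT2 (1.21%) and 82 for BxPC3 (0.645%), 396 in all (3.11%). The 12 pairs of different lines met it in 2 to 25 regions. The sum over the 3 lines was the highest of the 15 splits, of which the next gave 197 (exact permutation test, one-sided p = 0.0667, again the smallest possible). With at least 1000 bp between the sets 99 regions were left, and 245 of the 396 had 1 peak in every library. Without Panc327 replicate 1 the rule gave 1301 regions and without replicate 2 1126, with fewer libraries having to agree. The counts for Panc327, SUIT2 and BxPC3 were then 732, 363 and 206 without replicate 1, and 658, 269 and 199 without replicate 2.

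**Figure D5:**
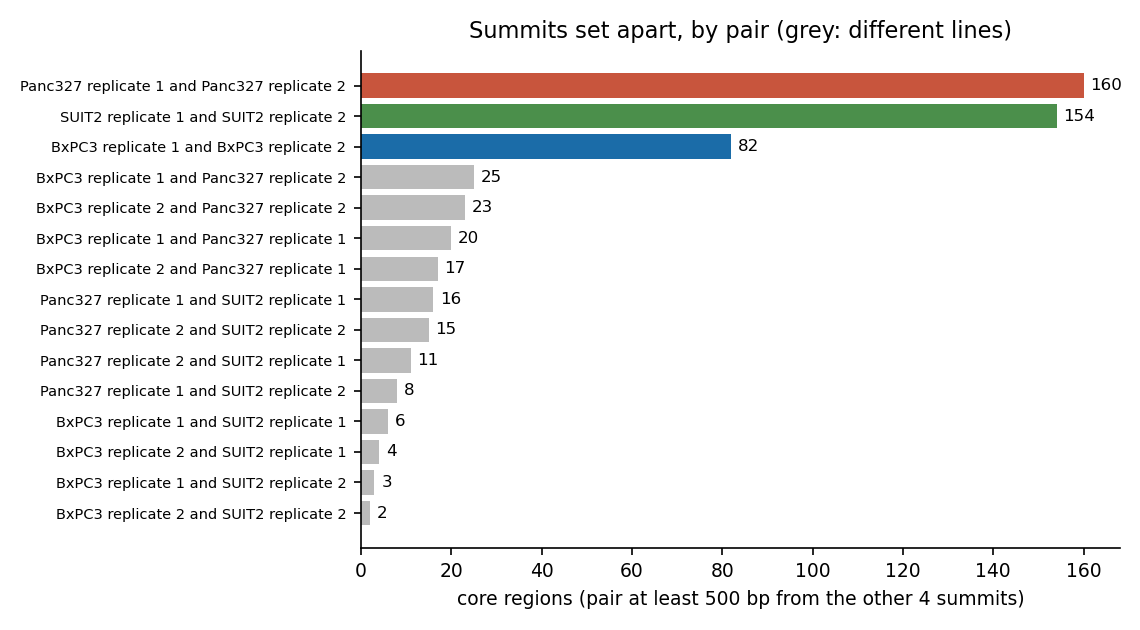
Number of core regions (horizontal axis) in which the leading summits of a pair of libraries lie within 150 bp of each other and at least 500 bp from the other 4. Coloured bars are the replicates of a line, with 160, 154 and 82 regions, and grey bars are the 12 pairs from different lines, with at most 25.

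The farthest displacement was on chromosome 22 from 30640458 to 30655344, a core region in which no base was called in all 6 libraries. The Panc327 summits lay at 30653705 and 30653572, and the other 4 at 30642372 and 30642352 in BxPC3 and 30642370 and 30642359 in SUIT2, so that 11200 bp separated the sets. SUIT2 called 1 peak over nearly the whole region, 14760 and 14887 bp, and so held both places in a single domain. Another Panc327 displacement was on chromosome 20 from 49406430 to 49412546, where each of the 6 libraries called 2 peaks. The Panc327 summits lay 4155 bp from the others, at 49411858 and 49411906, in the other of the 2 islands.

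In BxPC3 the largest displacement was 7564 bp, on chromosome 9 from 137261157 to 137282275. The BxPC3 summits lay at 137264099 and 137264087, and those of the other 4 libraries at 137271663 to 137271726. On chromosome 9 from 98267638 to 98274495 the covered length was alike in 6 libraries, 5179 to 6773 bp, and yet the BxPC3 summits at 98268703 and 98268684 stood 4820 bp from the others. On chromosome 1 from 226308818 to 226317399, 5912 bp lay between the sets, and BxPC3 covered 7276 and 7556 bp, within the range of 4409 to 7923 bp of the other libraries. Neither region passed the length test in BxPC3 (limma adjusted p = 0.798 and 0.142).

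In SUIT2 the largest displacement, 5839 bp, was on chromosome 22 from 26907097 to 26915944. The SUIT2 summits lay at 26914158 and 26914178, and those of the other 4 libraries at 26908240 to 26908319. This region was also much longer in SUIT2, 8726 and 8541 bp against 805 to 1572 bp in the others, and the added stretch held the highest point. On chromosome 7 from 73702300 to 73710097 the SUIT2 summits at 73707626 and 73707649 stood 3595 bp from the rest, with 7506 and 7412 bp covered against 1287 to 2115 bp.

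The replicates of SUIT2 and of BxPC3 ranked the core regions by length nearly alike, and other pairs of libraries less so. Across the 12721 regions Spearman's rho of covered length was 0.986 between the SUIT2 replicates, 0.977 between the BxPC3 replicates and 0.695 between the Panc327 replicates. It was 0.723 to 0.736 for BxPC3 with SUIT2, 0.562 to 0.737 for BxPC3 with Panc327 and 0.474 to 0.633 for Panc327 with SUIT2. For the −log10 q of the leading peak it was 0.987, 0.962 and 0.773 within SUIT2, BxPC3 and Panc327, and 0.540 to 0.670 between lines. Panc327 replicate 2 was nearer to the BxPC3 libraries in length (0.732 and 0.737) than to the other Panc327 library. Within a library, length and −log10 q of a region went together at 0.545 to 0.678. These are descriptions across regions of the same libraries, and regions are not independent replicates.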

How the data were processed

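The submitters' processing notes list hg19, MACS2, Bowtie 1.1.1 and bcl2fastq 1.8.4. How MACS2 was set is not given in the sources used here. The authors deposited a peak list per H3K27ac library, so replicates had not been pooled. Each peak has 1 summit. The deposited fold (a ratio of pile-up over background) and the deposited −log10 p-value gave the pile-up, assuming MACS2's pseudocount of 1 and Poisson tail; it came out within 0.02 of a whole number in at least 99.98% of the peaks of each Panc327 and SUIT2 list and in 1.83% and 5.97% in BxPC3, where it is approximate. The −log10 q-value ranked and filtered peaks within a list. The deposited integer score was not used. Start, end and summit are the authors' deposited positions. Other chromosomes held at most 3 peaks per list and were dropped.

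Lengths were compared with limma 3.58.1 (R 4.3.3), the line against the mean of the other 2, with Benjamini-Hochberg adjustment over all 12721 core regions. On simulated SUIT2 lengths for 12721 regions it called 81.0% of regions changed by 1.5 (log2) and 92.0% of those changed by 2. It called 0 of 12521 unchanged ones. The simulation gave each line the same normal spread in every region and no difference between BxPC3 and Panc327. These rates need not hold for the real lengths, whose spread varies by region, and calls for BxPC3 and Panc327 were not simulated. Other steps used pandas 2.3.3, matplotlib 3.10.9 and scipy 1.17.1 in Python 3.11.15 (numpy 2.4.6). The members and rules were chosen with earlier results of these data known. Named regions are the highest-ranked by these rules: ratio (10 per line), merged width, number of summits, displacement and span among the strongest (5 each), of which some are described; the longest shared kernels were chosen after their values were seen. Gene lists planned in the design need gene positions on hg19 and were not used here. Alternatives are in the closing section.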

Additional observations from a re-analysis of the deposited data

How the results depend on the processing

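The core count, 12721, was 5255 when a peak of each library had to cover at least 50% of the merged region, 12554 with a base common to all 6, and 12753 to 13902 without 1 library. Regions of 1 peak in every library numbered 9678 to 10803 without 1 library. Much broader regions at a ratio of 2 numbered 450 for SUIT2, 75 for Panc327 and 64 for BxPC3; at a −log10 q of at least 20 BxPC3 had 7; by span from first start to last end SUIT2 had 76; and with lengths divided by the library median SUIT2 had 70. Without 1 library they ranged from 14 to 43 in BxPC3, 27 to 40 in Panc327 and 124 to 231 in SUIT2. Without centring, limma called 318 broader and 867 narrower regions in Panc327 and 994 and 432 in SUIT2. Without 1 library, broader and narrower calls ranged from 146 to 1051 and 317 to 890 for SUIT2, 378 to 1010 and 233 to 1260 for Panc327, and 0 to 653 and 0 to 583 for BxPC3. Summits within 100 bp of each other in all libraries were found in 2839 regions, within 200 bp without both Panc327 libraries (chosen after seeing the data) in 8736, and within 200 bp without 1 library in 5919 to 7250. The difference in summit distance ranged from 0.875 to 27.5 bp without 1 library. Regions with summits set apart numbered 99 at 1000 bp, 245 with 1 peak in every library, and 544 to 1301 without 1 library. The cause of these shifts was not tested, apart from the rules being stricter or looser and fewer libraries having to agree.

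The replicate number did not pair the libraries: deviations of same-numbered libraries in covered length correlated at 0.056, 0.027 and 0.0033. With the replicate number as a block, limma called 551 broader and 674 narrower regions for SUIT2, 573 and 485 for Panc327 and 268 and 288 for BxPC3, within 1.5 times of the values without it. Precision is limited by 2 libraries per line, by the lower read stacks of Panc327 replicate 2 and by the disagreement of the Panc327 libraries.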
